A study of Sus scrofa with 67 samples.

Results

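A group of 58 genes of the pig was low in the ovary on days 0 and 3 of the oestrous cycle and high on day 9. In the endometrium and the oviduct the genes were about level between days 0 and 9 by the ratio given below. The genes were chosen by these values. Counts were scaled to CPM, the count of a gene relative to a fixed total per library, averaged over the libraries of a tissue and day, and raised by 1 CPM. A gene was taken if its day 9 value was at least 4 times its day 0 value in the ovary, if the same ratio lay between 0.5 and 2 in the endometrium and in the oviduct, and if its ovarian day 3 value was under 0.5 of its day 9 value. Because 1 CPM was added, a gene near or under 1 CPM in a tissue can change there and still count as level. TMPRSS7 had oviduct means of 0.128 CPM on day 0 and 1.25 on day 9, a ratio of 1.99 after the addition. With 0.1 CPM added instead, 37 of the 58 genes met the rule. Of 25322 genes in the table, 258 reached the ratio of 4 in the ovary, 115 of those were also level by this ratio in both other tissues, and 58 of these were late in the sense of the day 3 condition. A gene symbol could be paired with 38 of the 58, and the remaining genes are referred to by their Ensembl identifiers. Some identifiers without a symbol closely followed a member with one. ENSSSCG00000029032 had ovarian means of 44.9, 39.8 and 13.5 CPM on days 6, 9 and 12, where HUNK had 44.0, 44.3 and 14.5. ENSSSCG00000015902 likewise followed COBLL1, ENSSSCG00000023708 ERO1B and ENSSSCG00000022821 PAK3. Identifiers without a symbol also followed each other. ENSSSCG00000022766, ENSSSCG00000028272 and ENSSSCG00000030600 had ovarian means of 199, 84.3 and 60.9 CPM on day 9 and 110, 46.1 and 34.8 on day 12. Whether such identifiers are parts of the same gene was not tested. Counts of genes below are counts of identifiers and may count a gene more than once.

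The libraries came from gilts, young female pigs, of a Landrace and Yorkshire cross, and the groups differ in tissue and day only. RNA was sequenced from whole ovary, from endometrium freed of myometrium, and from the ampulla of the oviduct, with 22 libraries of each tissue. The ovary had 3 libraries on each of days 0, 6, 9 and 18, 2 on day 3, and 4 on each of days 12 and 15. The other tissues had 2 to 4 libraries a day, and day 6 of the oviduct had 2. The study describes 3 gilts per day, so the 4 libraries of a day may not all be separate animals, and p-values measure the spread between these libraries. Total counts ranged from 8962103 to 13442083, at which 3 counts, taken here as the lowest detectable level, equal 0.223 to 0.335 CPM.

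After ovulation the emptied follicle is turned into a corpus luteum, a temporary gland whose luteal cells take up or make cholesterol and convert it to progesterone. In the pig the gland grows through the early luteal phase, is fully formed at mid-cycle and regresses before the next oestrus when no pregnancy follows, a process called luteolysis that prostaglandin F2alpha from the uterus sets off. An ovary therefore holds mostly luteal tissue in mid-cycle and mostly follicles and stroma around oestrus. In bulk tissue, fewer cells of a type and less RNA per cell cannot be told apart.

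Days 0, 3 and 9 of the ovary and days 0 and 9 of the other tissues were used to choose the genes, and their values are a description only. Ovarian days 6, 12, 15 and 18 and day 6 and day 18 of the other tissues were not used, and apart from the comparison of days 0 and 9 just below, which is a description, the tests are on those. The ratio of day 9 to day 0 in the ovary ran from 4.08 to 45.7 with a median of 5.83, and was highest for TMPRSS7. Oocyte markers summed to at least 154 CPM in every ovary library, and to 253 to 377 CPM on day 0 and 355 to 531 on day 9. Of 7 oocyte markers tested, 6 had a negative change from day 0 to day 9, with a median log2 fold change of -2.59. The sum thus did not follow most of its markers and is no check of the ovary label. In edgeR's quasi-likelihood test, 43 of the 57 genes that passed the filter on low counts rose from day 0 to day 9, where 5.47% of all genes tested rose. That count was 0 without library 1 or library 2 of day 0, 29 without library 3 of day 0, and 10, 12 and 1 without library 1, 2 or 3 of day 9. In all 57 every library of day 9 lay above every library of day 0, as did 13.6% of all genes tested; both counts restate how the genes were chosen. Just inside the ratio of 4 lay ENSSSCG00000008845 at 4.08 and ENSSSCG00000023014 at 4.15, and just outside lay SLC25A38 at 3.94 and ENSSSCG00000027118 at 3.99. Just inside the day 3 condition lay RASGRP1, whose day 3 value was 0.495 of its day 9 value, and just outside lay CNNM2 at 0.505.

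The single gene left out of the tests within the ovary, ENSSSCG00000025180, had 19.5 CPM in the first library of day 9 and 0 CPM in each other ovary library. Its place in the group rests on that library. It stayed in the tests of the ovary against another tissue, in which all 58 genes were tested. A further 12 genes fell below the ratio of 4 when their highest day 9 library was left out, among them DHRS4, CAPN6, NR4A3, PCK1, MARVELD2, SIDT2 and HAPLN1. For DHRS4 the third library of day 9 held 77.6% of the day 9 sum.

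In the ovary the group rose to mid-cycle and was low again at its end, and in the other tissues its mean stayed between the ovarian means of days 0 and 3. The mean of log2(CPM + 1) over the 58 genes was 2.52 ± 0.22 (SD, n = 3) on day 0, 3.23 ± 0.25 (n = 2) on day 3, 4.94 ± 0.58 (n = 3) on day 6 and 5.46 ± 0.06 (n = 3) on day 9. It was 4.31 ± 1.31 (n = 4) on day 12, 3.28 ± 0.56 (n = 4) on day 15 and 2.80 ± 0.43 (n = 3) on day 18. In the endometrium the group means lay between 2.72 and 2.89 on all days, and in the oviduct between 2.59 and 3.02. Set against its own day 9 mean, the median gene stood at 20.2% on day 3 and 81.1% on day 6, and then dropped from 60.9% on day 12 through 21.6% on day 15 to 14.6% on day 18. The ovarian mean peaked on day 9 for 32 genes, earlier, on day 6, for 14, later, on day 12, for 11, and for CD209 alone on day 18.

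**Figure D1:**
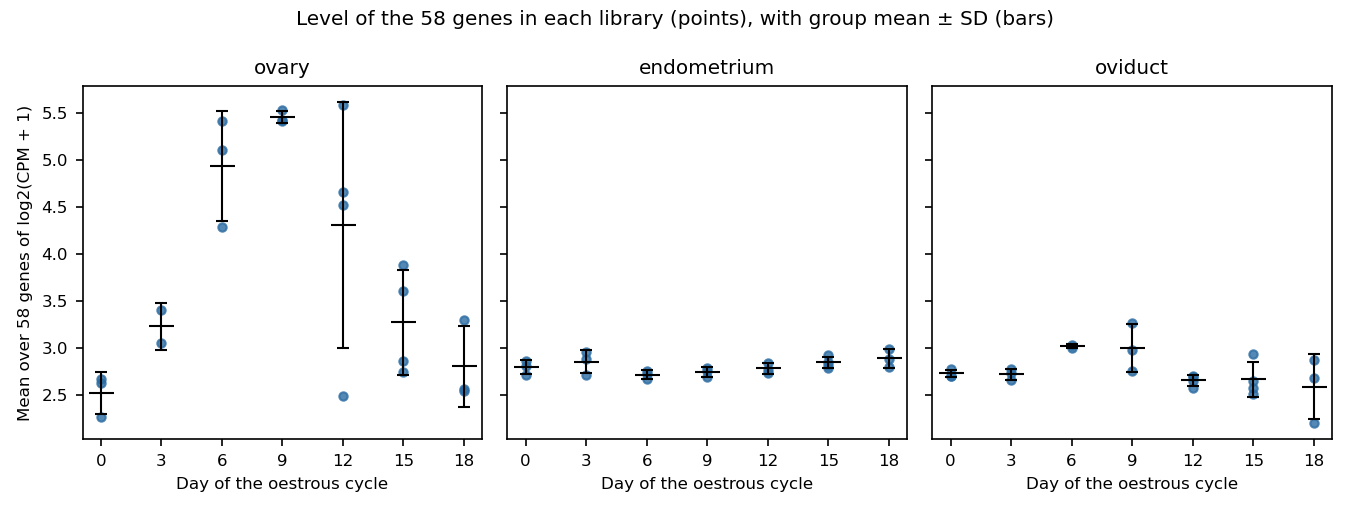
Mean of log2(CPM + 1) over the 58 genes (vertical axis) in each library (points) against the day of the oestrous cycle, with 1 panel per tissue and the mean and SD of each tissue and day as bars. The ovary rose to 5.46 on day 9 and had an SD of 1.31 on day 12, and group means of the other tissues stayed between 2.59 and 3.02.

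The libraries of a day did not stand together in the middle of the cycle. On day 6 the group mean of log2(CPM + 1) was 4.29, 5.11 and 5.42 in libraries 1 to 3, and library 1 was the lowest for 44 of the 57 genes whose values differed. On day 12 it was 2.49, 4.66, 4.52 and 5.59. Library 1 of day 12 was thus at the level of day 0, was lowest of its day for 50 of 57 genes, and was at or below the highest day 0 library for 42 of the 58. Library 4 of day 12 was the highest of its day for 37 genes and lay at or above the lowest day 9 library for 51. On day 15 the values were 2.75, 3.89, 2.86 and 3.61, and on day 18 they were 3.30, 2.54 and 2.57.

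The summed CPM of luteal cell markers followed the group means of the 58 genes on some days and not on others. Of 8 such markers 5 had an identifier (CYP11A1, SCARB1, LHCGR, PRLR and OXT), and CYP11A1 and SCARB1 carried nearly all of the sum, while OXT did not exceed 0.186 CPM in any ovary library. On day 12 the sum was 591 CPM in library 1, which was also lowest in the 58 genes, but 13597, 16201 and 11649 CPM in libraries 2 to 4, so that library 4, the highest in the 58 genes, had the lowest sum of these 3. On day 6 the order was opposite to that of the 58 genes, with sums of 11568, 9378 and 8397 CPM in libraries 1 to 3. The sum ranged from 539 to 6457 CPM on day 15 and from 648 to 4881 CPM on day 18. On day 15 libraries 1 and 3 and on day 18 libraries 2 and 3 had the lower sums and also the lower group means of the 58 genes. The part of luteal tissue content in the results below was not tested.

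**Figure D2:**
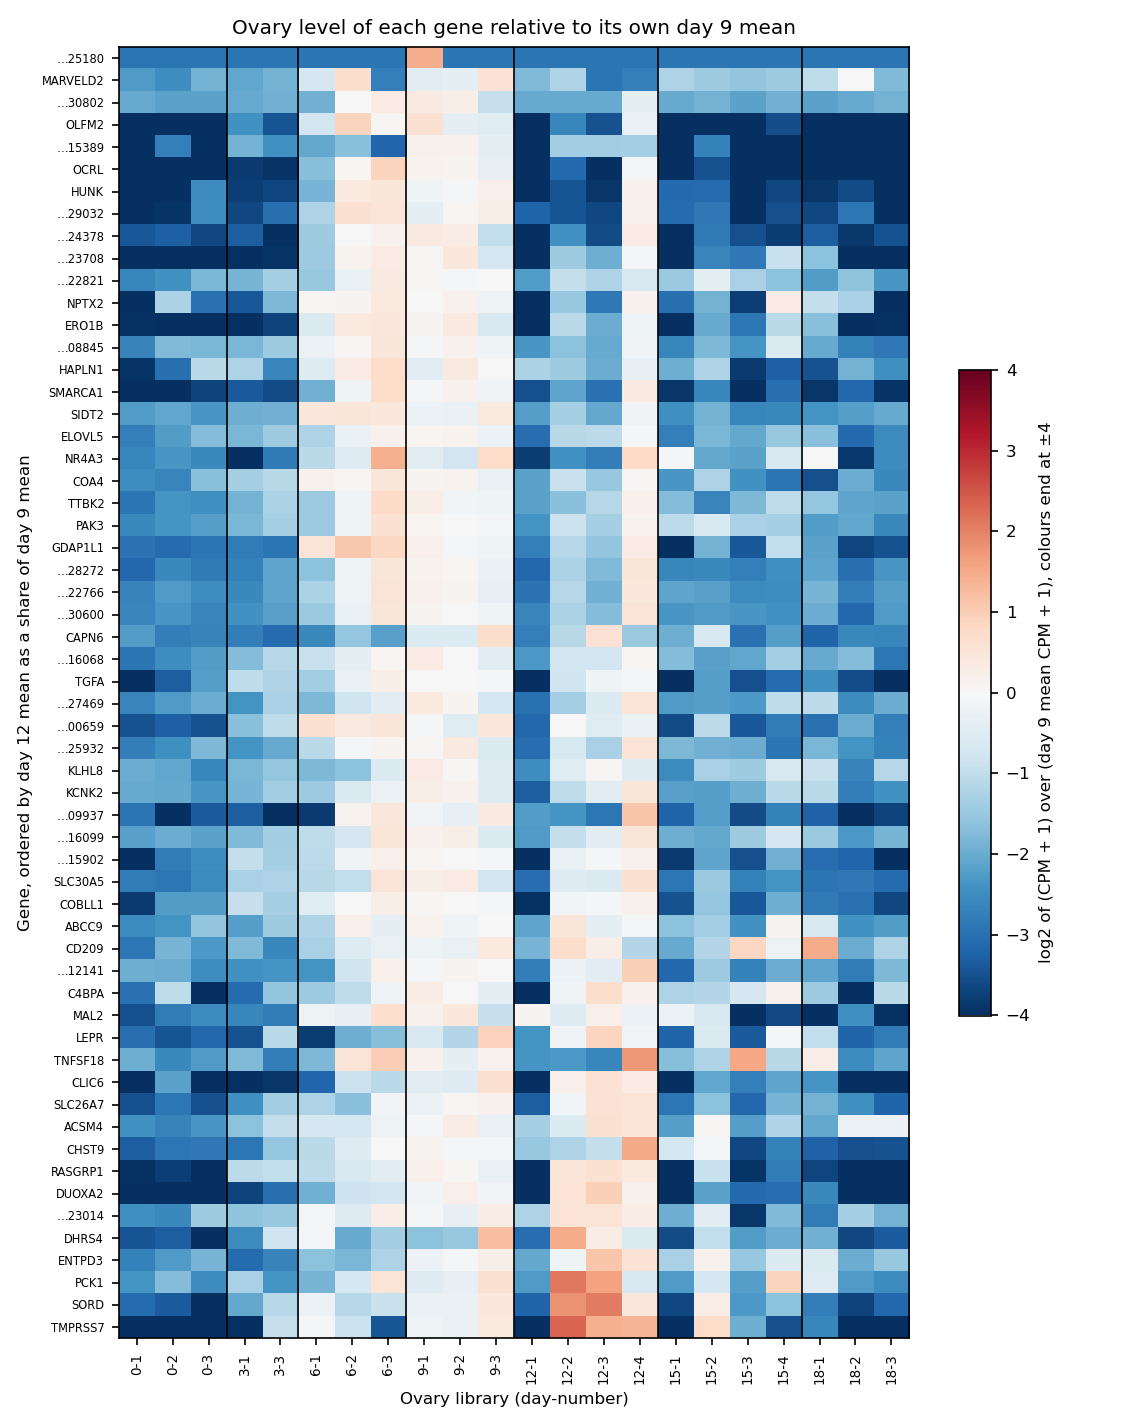
Level of each of the 58 genes (rows, ordered by the day 12 mean as a share of the day 9 mean) in each of the 22 ovary libraries (columns, day and library number), as log2 of (CPM + 1) over the gene's day 9 mean plus 1, with colours ending at 4 either way; identifiers are shortened to their last 5 digits. Days 0 and 3, library 1 of day 12 and most libraries of days 15 and 18 are blue, and libraries 2 and 3 of day 12 are blue for the genes at the top and red for those at the bottom.

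The fall from day 6 to day 18 was the clearest change in the days that the choice of genes did not use. Of the 57 genes tested, 33 were lower on day 18 than on day 6 (edgeR's quasi-likelihood test, Benjamini-Hochberg adjusted p under 0.05) and 0 were higher, where 7.37% of all 15638 genes tested were lower and 5.16% higher. The median log2 fold change was -2.69 over the 57 genes and 0.09 over all genes tested, and 54 of the 57 changes were negative. In 37 genes every library of day 6 lay above every library of day 18, as did 9.43% of all genes tested. The count moved with the libraries and the fit: it was 15 without library 2 of day 18, 2 without library 3 of day 18 (0.679% of all genes tested were then lower), and 11 without either library 2 or library 3 of day 6. When the spread was estimated from days 6, 12, 15 and 18 only, without the days that chose the genes, 5 genes passed (OCRL, OLFM2, MAL2, SIDT2 and COA4), where 1.85% of all genes tested were lower, with the same median of -2.68. SIDT2 and COA4 passed in each of the 14 fits run.

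**Figure D3:**
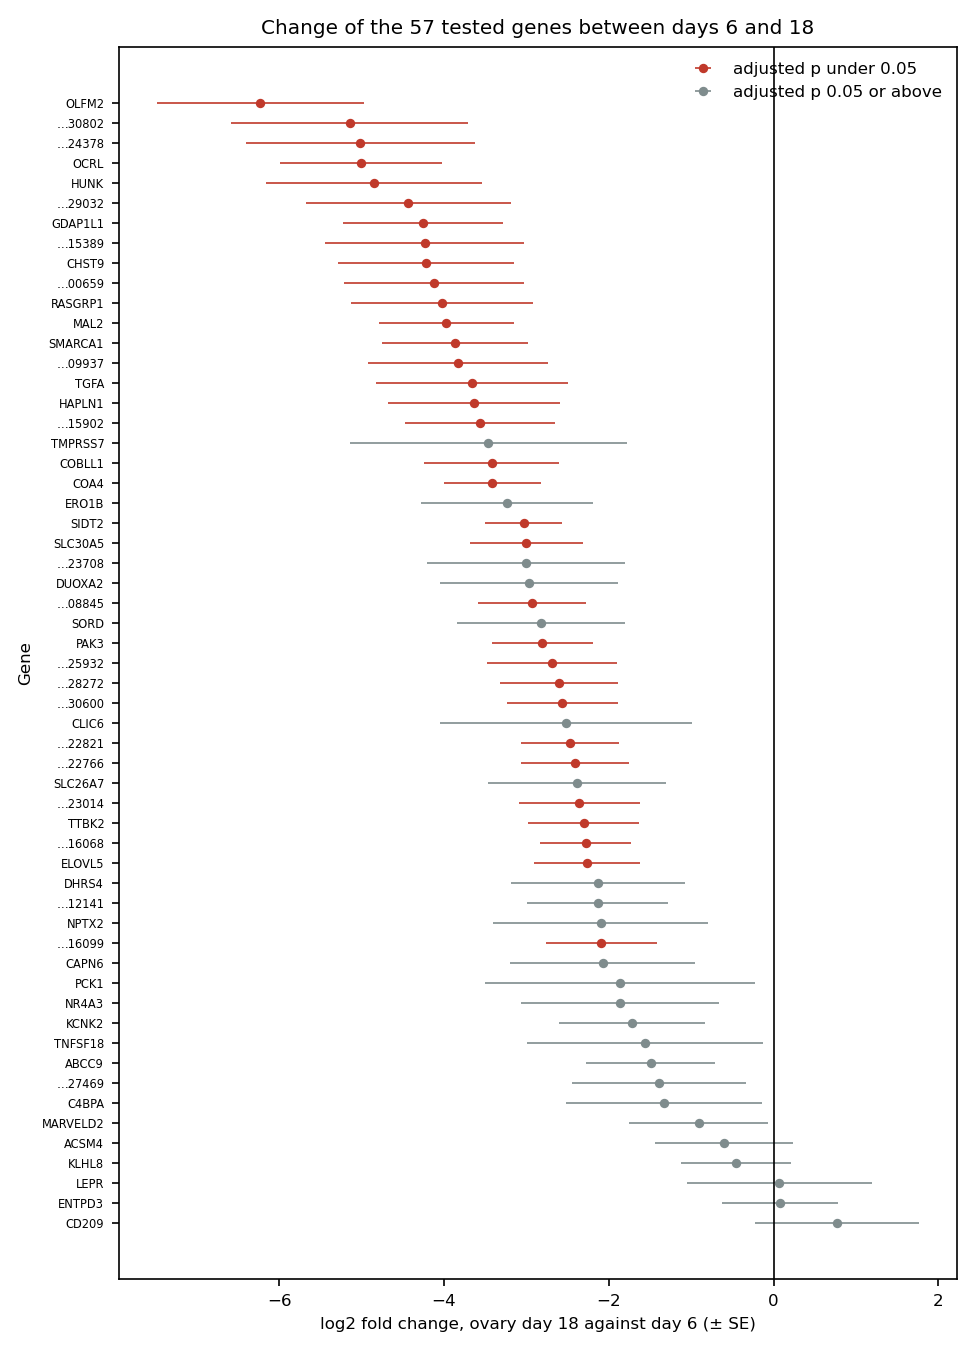
Log2 fold change in the ovary between day 6 and day 18 (horizontal axis, points) with its SE (bars) for the 57 tested genes, ordered by size, with genes of an adjusted p under 0.05 in red and the others in grey. The 33 red genes all lie below 0, and CD209, ENTPD3 and LEPR lie at or above 0.

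The genes are described below by the roles of their products, an order set by hand with the values seen and not a test of any role. SMARCA1 (ENSSSCG00000012649) encodes an ATPase of the ISWI family that slides nucleosomes along DNA, and OCRL (ENSSSCG00000012650) encodes a phosphatase of membrane inositol lipids that acts in vesicle traffic. SMARCA1 had 92.5, 110 and 153 CPM on day 0, 193 and 169 on day 3, 528, 1786 and 3334 on day 6, and 1941, 2263 and 1830 on day 9. It then had 174, 461, 254 and 2579 CPM on day 12, 136, 329, 125 and 249 on day 15, and 136, 228 and 131 on day 18. Only library 4 of day 12 was still at the day 9 level, and no library of day 15 or 18 reached the lowest library of day 6.

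OCRL had 49.96, 49.2 and 56.4 CPM on day 0, 84.4 and 80.4 on day 3, 378, 1299 and 2249 on day 6, and 1356, 1330 and 984 on day 9. On day 12 it had 59.2, 140, 73.2 and 1166 CPM, on day 15 54.2, 109, 57.8 and 63.2, and on day 18 45.3, 59.6 and 50.1. Its day 18 libraries lay within the range of day 0 or next to it. By edgeR's quasi-likelihood test the log2 fold change from day 6 to day 18 was -3.87 ± 0.89 (SE) for SMARCA1 (adjusted p = 0.0157) and -5.01 ± 0.98 for OCRL (adjusted p = 0.0106). Without library 3 of day 18 the adjusted p was 0.07 for SMARCA1 and 0.054 for OCRL.

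These 2 genes are next to each other on chromosome X in the RefSeq order of protein-coding genes. APLN, the gene directly beyond OCRL, could not be paired with an identifier and has no value here. Genes beyond APLN did not share the pattern. XPNPEP2, an aminopeptidase, had means of 1.68 CPM on day 6 and 7.71 on day 18, and ZDHHC9, a palmitoyltransferase, had 80.8 and 124 CPM. A second pair of neighbours on X was PAK3, a kinase that acts on the cytoskeleton, and CAPN6, a calpain-family protein that binds microtubules. PAK3 had 6.43, 17.0 and 29.9 CPM on day 6 and 3.35, 3.83 and 2.40 on day 18, and fell by 2.81 ± 0.62 on the log2 scale (edgeR, adjusted p = 0.0134). CAPN6 had 0.651, 2.38 and 1.21 CPM on day 6 and 0.0744, 0.653 and 0.622 on day 18, with a log2 fold change of -2.07 ± 1.12 that did not pass (edgeR, adjusted p = 0.21). CHRDL1, a secreted antagonist of bone morphogenetic proteins that lies next to PAK3, rose from a mean of 12.2 CPM on day 6 to 72.1 on day 18 (edgeR, adjusted p = 0.0137). Whether the counting used strand is not given in the sources used here, so reads of overlapping or antisense genes cannot be told apart.

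SIDT2, SLC30A5, MAL2 and COBLL1 fell from day 6 to day 18, and ERO1B did not pass. SIDT2 (ENSSSCG00000015074), a lysosomal membrane protein, had 568.2, 588 and 557 CPM on day 6 and 78.3, 89.4 and 102 on day 18. Its log2 fold change was -3.03 ± 0.47 (edgeR, adjusted p = 0.00542). ERO1B (ENSSSCG00000010148), an oxidase that drives disulfide formation in the endoplasmic reticulum, had 195, 379 and 387 CPM on day 6 and 90.2, 9.43 and 17.9 on day 18. All day 6 libraries of ERO1B were above all day 18 libraries, but library 1 of day 18 stayed high and the change of -3.24 ± 1.05 did not pass (edgeR, adjusted p = 0.0502). SLC30A5 (ENSSSCG00000022430), which carries zinc into the secretory pathway, had 112, 122 and 345 CPM on day 6 and 30.6, 32.6 and 27.5 on day 18, a fall by 3.00 ± 0.69 on the log2 scale (edgeR, adjusted p = 0.0152). MAL2 (ENSSSCG00000006003), a membrane protein of transcytosis in epithelia, had 90.1, 81.7 and 167 CPM on day 6 and 4.61, 18.2 and 5.78 on day 18, a fall by 3.97 ± 0.82 (edgeR, adjusted p = 0.0112). MAL2 was an exception on day 12, where library 1 had 112 CPM and was not the lowest. COBLL1 (ENSSSCG00000025598), a protein of actin binding, had 177, 242 and 289 CPM on day 6 and 33.8, 30.2 and 18.8 on day 18. Its fall by 3.42 ± 0.82 passed (edgeR, adjusted p = 0.0185).

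Of the metabolic genes with a symbol, ELOVL5 and COA4 fell, and DHRS4, SORD, PCK1 and ACSM4 did not pass. ELOVL5 (ENSSSCG00000024149), which lengthens polyunsaturated fatty acids, had 123, 238 and 324 CPM on day 6 and 90.6, 32.9 and 49.1 on day 18, and fell by 2.26 ± 0.64 on the log2 scale (edgeR, adjusted p = 0.0319). ELOVL5 passed in 7 of 14 fits. COA4, an assembly factor of cytochrome c oxidase, had 44.7, 40.8 and 55.7 CPM on day 6 and 2.60, 9.24 and 5.78 on day 18, and its fall by 3.41 ± 0.59 passed (edgeR, adjusted p = 0.00799). DHRS4 (ENSSSCG00000002013), a reductase of carbonyl compounds and retinal, had 416, 106 and 166 CPM on day 6, 139, 152 and 1009 on day 9, and 51.6, 1204, 537 and 290 on day 12. Its libraries of 1 day differed more than its days did, and the change to day 18 was not past the threshold at -2.13 ± 1.06 (edgeR, adjusted p = 0.171). SORD (ENSSSCG00000004679), which oxidizes sorbitol to fructose, had 198, 106 and 125 CPM on day 6, 24.2, 806, 990 and 314 on day 12, and 33.2, 17.0 and 25.1 on day 18, a change of -2.82 ± 1.03 (edgeR, adjusted p = 0.0728). PCK1, which commits carbon to glucose synthesis, and ACSM4, which activates medium-chain fatty acids, did not exceed 23.9 and 9.498 CPM in any ovary library, with changes of -1.87 ± 1.64 and -0.60 ± 0.84 that did not pass.

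SORD lies close to a cluster of genes for the production of hydrogen peroxide, which holds another member. DUOXA2 encodes the factor that brings a dual oxidase to the cell surface, and in the RefSeq order DUOX2, the oxidase itself, is the only protein-coding gene between DUOXA2 and SORD. The mean CPM of DUOXA2 was 2.42, 6.04, 32.3, 69.6, 79.4, 7.71 and 4.76 on days 0 to 18, and that of SORD was 19.9, 80.3, 143, 232, 533, 104 and 25.1. DUOX2 and DUOXA1, which are no members, were likewise highest on day 12. Their means on days 6, 9, 12 and 15 were 78.7, 197, 277 and 37.5 CPM for DUOX2 and 27.9, 63.0, 77.5 and 7.74 for DUOXA1. DUOX1, the other oxidase of the cluster and no member, was highest on day 9 instead, with 31.7, 72.7, 49.9 and 13.8 CPM on those days. TERB2, a meiotic gene on the other side of SORD, had no daily mean above 0.0937 CPM. DUOXA2, SORD, DUOX2 and DUOXA1 did not pass the test of day 18 against day 6, with an adjusted p from 0.0613 for DUOXA1 to 0.241 for DUOX2 (edgeR's quasi-likelihood test).

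**Figure D4:**
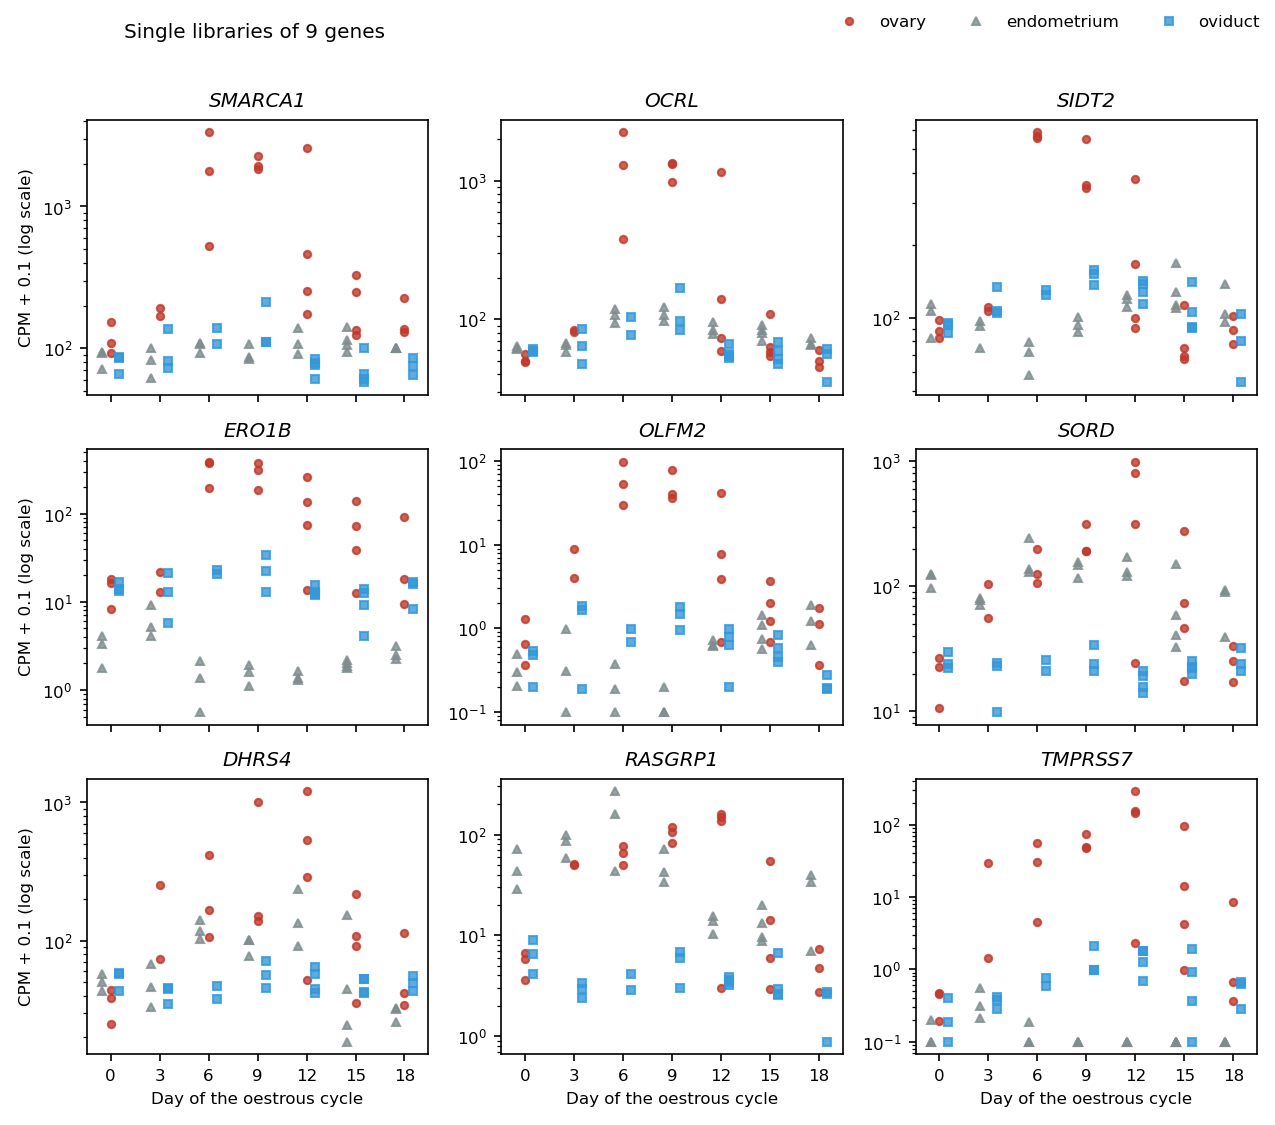
CPM plus 0.1 (vertical axis, log scale) of 9 genes in each library of the ovary (red circles), the endometrium (grey triangles, moved left) and the oviduct (blue squares, moved right) against the day of the cycle. SMARCA1, OCRL and OLFM2 have 1 high library on day 12, whereas SORD, RASGRP1 and TMPRSS7 have 3 libraries on day 12 above all day 9 libraries.

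HUNK, RASGRP1, TGFA and TTBK2, which act in signalling, fell in the main fit, and LEPR, NR4A3 and TNFSF18 did not pass. HUNK (ENSSSCG00000029392), a kinase related to AMPK, had 11.4, 58.3 and 62.3 CPM on day 6 and 2.08, 2.80 and 0.889 on day 18, a fall by 4.85 ± 1.31 on the log2 scale (edgeR, adjusted p = 0.027). RASGRP1 (ENSSSCG00000004791), which activates Ras in response to diacylglycerol, had 49.7, 65.1 and 77.2 CPM on day 6, 2.92, 148, 159 and 136 on day 12, and 7.14, 2.61 and 4.62 on day 18. Its log2 fold change from day 6 to day 18 was -4.03 ± 1.10, and its libraries of those days did not overlap (edgeR, adjusted p = 0.0287). TGFA, a ligand of the epidermal growth factor receptor, had 10.6, 24.0 and 35.0 CPM on day 6 and 4.46, 1.59 and 0.355 on day 18, and passed with -3.66 ± 1.17 (edgeR, adjusted p = 0.0479). TTBK2, a kinase needed to build cilia, passed with -2.31 ± 0.67 (edgeR, adjusted p = 0.0349). These calls depended on the fit: TGFA passed in 5 of 14 fits, HUNK in 7 of 13 with a value, and RASGRP1 and TTBK2 in 8 of 14 each. LEPR (ENSSSCG00000025188), the leptin receptor and the only member in the lists of hormone receptors, had 1.38, 7.45 and 9.17 CPM on day 6, 20.4, 13.6 and 62.1 on day 9, 5.36, 29.0, 59.6 and 29.8 on day 12, and 15.7, 2.61 and 3.73 on day 18. Its change from day 6 to day 18 was 0.07 ± 1.12 (edgeR, adjusted p = 0.973), and was -1.39 without library 1 of day 18, with the groups overlapping. NR4A3, an orphan nuclear receptor of the immediate early response, had 20.6, 30.7 and 122 CPM on day 6 and 44.2, 2.15 and 6.93 on day 18, and TNFSF18, a cytokine of the tumour necrosis factor family, had 1.63, 12.3 and 17.3 and then 10.19, 0.560 and 1.16. Neither passed, with changes of -1.86 ± 1.20 and -1.56 ± 1.44.

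OLFM2 (ENSSSCG00000027434), a secreted olfactomedin-domain protein, had the largest fall of the 57 genes tested. It had 0.557, 0.266 and 1.19 CPM on day 0, 30.1, 98.0 and 53.5 on day 6, 79.1, 40.5 and 36.5 on day 9, and 0.585, 7.76, 3.76 and 41.9 on day 12. On day 15 it had 0.582, 1.90, 1.11 and 3.55 CPM and on day 18 it had 1.64, 1.03 and 0.267, so that from day 12 on each library except library 4 of day 12 was under every library of day 6. The fall to day 18 was 6.23 ± 1.26 on the log2 scale (edgeR, log2 fold change -6.23, adjusted p = 0.0108). GDAP1L1 (ENSSSCG00000007373), a membrane protein related to glutathione transferases, was highest on day 6 with 61.8, 92.1 and 77.2 CPM, which was 179% of its day 9 mean, and had 9.08, 2.43 and 2.93 CPM on day 18, a fall by 4.25 ± 0.97 (edgeR, adjusted p = 0.0152). CHST9, a sulfotransferase of glycans, and HAPLN1, which ties hyaluronan to proteoglycans in the matrix around the cumulus, also fell, by 4.22 ± 1.07 (edgeR, adjusted p = 0.0221) and 3.63 ± 1.04 (adjusted p = 0.0336). CHST9 passed in 9 and HAPLN1 in 8 of 14 fits. NPTX2 (ENSSSCG00000007603), a secreted pentraxin, had 197, 207 and 250 CPM on day 6 and 98.8, 77.2 and 10.8 on day 18, and its change of -2.10 ± 1.30 did not pass although the libraries did not overlap (edgeR, adjusted p = 0.274). NPTX2 also had 242 CPM in library 4 of day 15 against 22.5, 51.3 and 13.2 in the others.

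TMPRSS7, a membrane serine protease, had 55.5, 30.8 and 4.47 CPM on day 6, 2.24, 289, 156 and 147 on day 12, and 8.56, 0.560 and 0.267 on day 18, with a change of -3.46 ± 1.68 that did not pass (edgeR, adjusted p = 0.164). The highest library of this gene in the whole ovary series was on day 12. C4BPA, a regulator of complement, ENTPD3, which splits extracellular nucleotides, and CD209, a lectin of dendritic cells and macrophages, did not pass either, with changes of -1.33 ± 1.19, 0.08 ± 0.71 and 0.77 ± 0.99. CD209 had 37.1 CPM in library 1 of day 18, its highest value in the ovary.

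The remaining members with a symbol did not pass. CLIC6, an intracellular chloride channel protein, had 4.48, 26.1 and 22.4 CPM on day 6 and 8.56, 0.187 and 1.78 on day 18. SLC26A7, an anion exchanger, had 4.40, 2.93 and 10.5 and then 2.38, 1.31 and 0.355 CPM. In both the groups differed by their means, but changes of -2.52 ± 1.53 and -2.39 ± 1.08 did not pass (edgeR, adjusted p = 0.264 and 0.137). KCNK2, a leak potassium channel, ABCC9, the sulfonylurea receptor of potassium channels, MARVELD2, a protein of tricellular tight junctions, and KLHL8, an adaptor of a ubiquitin ligase, had changes of -1.72 ± 0.89, -1.49 ± 0.79, -0.91 ± 0.84 and -0.46 ± 0.67, none of which passed. Among the 19 tested members without a symbol, log2 fold changes ran from -5.14 for ENSSSCG00000030802 to -1.39 for ENSSSCG00000027469, and 16 passed. Some of these identifiers may be parts of a named member or of the same gene as another, as said above, so the 16 may not be separate genes.

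The fall was already present on day 15. Against day 6, 19 of the 57 genes were lower on day 15 (edgeR's quasi-likelihood test), and 0 were higher, where 3.7% of all genes tested were lower and 1.87% higher. Those with a symbol were SMARCA1, OCRL, SIDT2, SLC30A5, COBLL1, COA4, OLFM2, HUNK, GDAP1L1 and HAPLN1. In 24 genes all day 6 libraries lay above all day 15 libraries, as did 5.4% of all genes tested. Counts were 4 without library 1 or library 3 of day 15 and without library 2 or library 3 of day 6, 9 without library 1 of day 6, 10 without library 4 of day 15, and 33 without library 1 of day 12, which enters through the spread only (7.43% of all genes tested were then lower). In the fit of days 6, 12, 15 and 18 alone, SIDT2 was the 1 gene that passed, where 0.401% of all genes tested were lower.

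Steps between neighbouring days were not resolved by the main test. Day 12 against day 6 gave 0 of 57 genes and 0.0% of all genes, with 9 of the 57 at an unadjusted p under 0.05, and DESeq2 called 1. Day 15 against day 12 gave 0 of 57 genes, and 0.0256% of all genes, with 34 of the 57 at an unadjusted p under 0.05. The median log2 fold change of that step was -1.79 over the 57 genes and 0.03 over all genes, and 56 of the 57 changes were negative. Without library 1 of day 12, 32 of the 57 genes were lower on day 15, where 9.55% of all genes tested were lower, and 12 were lower without library 2 of day 15. DESeq2 called 25 of the 57 with all libraries, where it called 4.46% of all genes lower. Day 18 against day 15 gave 0 genes, and 0.0% of all genes, with 6 of the 57 at an unadjusted p under 0.05, and DESeq2 called 0 of the 57.

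Day 12 split the 58 genes. Libraries 2 and 3 of day 12 both lay below every day 9 library for 32 genes and both lay above every day 9 library for 6, which were RASGRP1, DUOXA2, SORD, TMPRSS7, PCK1 and ENSSSCG00000023014. Library 4 lay below the day 9 libraries for 7 genes only. In libraries 2 and 3 OCRL had 140 and 73.2 CPM, SMARCA1 461 and 254 and SIDT2 166 and 99.4, against day 9 means of 1223, 2011 and 418 CPM. In the same libraries SORD had 806 and 990 CPM against a day 9 mean of 232, and TMPRSS7 had 289 and 156 against 57.1. The split was found by looking at these values and was not tested.

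CYP11A1 and SCARB1, which carry nearly all of the luteal marker sum, were above their day 9 levels in those libraries. CYP11A1, which makes pregnenolone from cholesterol, had 7151 and 9045 CPM in libraries 2 and 3 of day 12 and 4056 to 4207 CPM on day 9. SCARB1, the receptor that takes up cholesterol from lipoproteins, had 6407 and 7112 CPM in them and 5123 to 5652 on day 9. LHCGR, the receptor of luteinizing hormone, had 37.5 and 43.9 CPM in them and 25.5 to 43.9 on day 9, PRLR, the prolactin receptor, had 1.29 and 1.03 CPM and at most 0.165 on day 9, and OXT was at 0 CPM in both. On day 3 CYP11A1 and SCARB1 were already above their day 0 means, with 2935 and 6363 CPM for CYP11A1 and 4788 and 6428 for SCARB1. The 58 genes were at a median of 16.6% and 24.6% of their day 9 means in those 2 libraries of day 3, as their choice required.

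**Figure D5:**
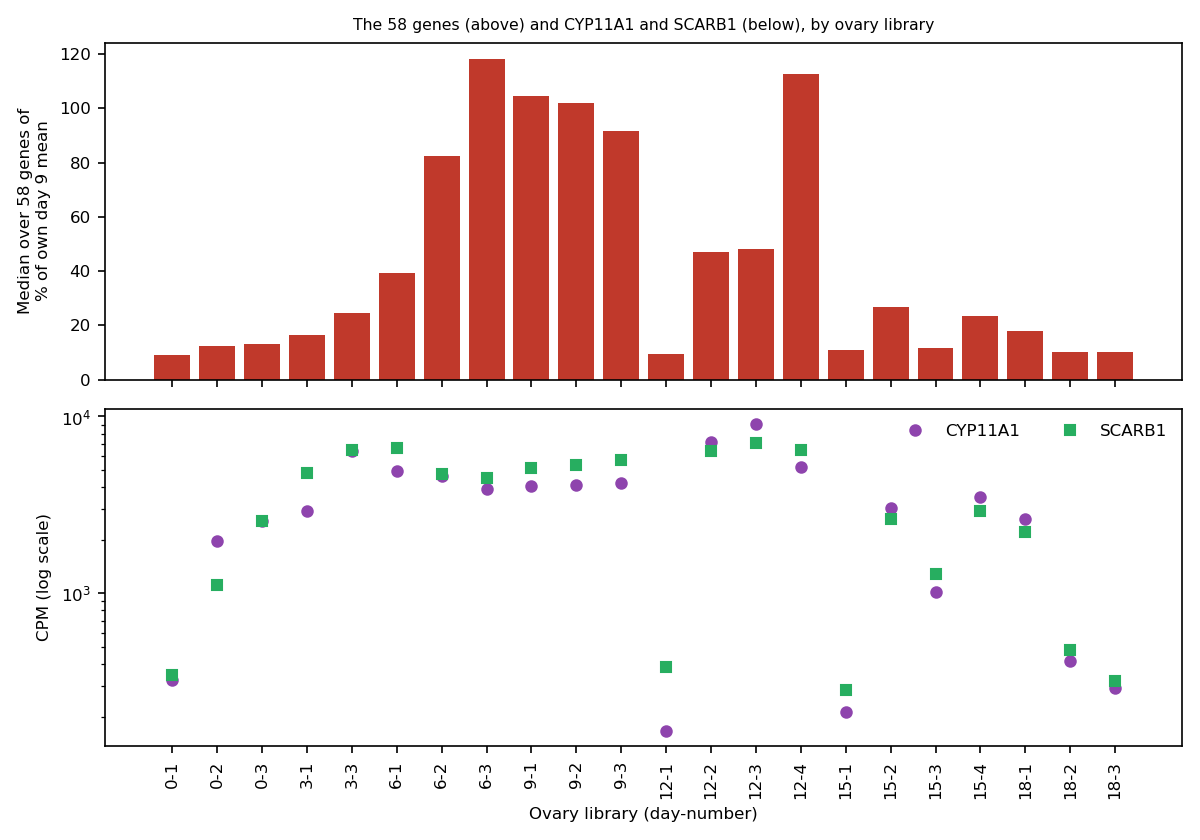
Above, the median over the 58 genes of the level as a percentage of each gene's own day 9 mean (bars) in each ovary library, and below, CPM (log scale) of CYP11A1 and SCARB1 in the same libraries. On day 3 the genes of the lower panel lie between 2935 and 6428 CPM while the bars stand at 16.6% and 24.6%, and library 1 of day 12 is low in both panels.

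Lists of ovarian genes were compared over the same days, as background to the fall. Of 34 tested genes of cholesterol uptake, storage and synthesis, 13 were lower on day 18 than on day 6 and 1 was higher (edgeR), where 7.37% of all genes tested were lower and 5.16% higher, with a median log2 fold change of -2.07. They included SCAP, a sterol-sensing escort protein, at -3.38 ± 0.64 (edgeR, adjusted p = 0.00983), and APOE, a lipoprotein component, was the gene that rose. Of 16 genes of steroid hormone synthesis 1 was lower, CYB5A, a cofactor of steroid cytochromes, with -4.13 ± 1.21 (edgeR, adjusted p = 0.0356), and the median was -0.86. CYP11A1 had a change of -2.22 ± 1.20 that did not pass (adjusted p = 0.207). Of 22 hormone and prostaglandin receptors 1 was lower and 1 higher, PGRMC1 and PRLR. Of 20 genes of luteolysis, prostaglandins and cytokines 3 were lower, PTGES, PTGES2 and SLCO2A1, and ATF3 was higher. Of 22 genes of angiogenesis 2 were lower, KDR and EPAS1, and of 22 genes of the extracellular matrix 3 were higher, MMP2, MMP9 and MMP14. In the lists after the first, counts were of 1 to 3 genes and lay on both sides of those shares of all genes, and nothing is read from them.

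Markers of other cells did not all stay level between the same days. Granulosa cell markers (5 found of 11) summed to 1762 to 2511 CPM on day 6 and 1038 to 8397 on day 18, and GJA1 was higher. Theca markers (4 of 6) summed to 166 to 297 and 186 to 2608 CPM, and leukocyte markers (9 of 15) to 436 to 600 and 398 to 7508 CPM, the highest being library 3 of day 18. Endothelial markers (6 of 10) summed to 821 to 1092 and 699 to 828 CPM, with KDR and ESAM lower. Sums of the markers of smooth muscle and stroma (10 of 12) were 7182 to 11505 and 8819 to 17481 CPM, of oocytes (9 of 12) 348 to 555 and 154 to 380, of ciliated and secretory epithelium (7 of 10) 216 to 702 and 42.4 to 778, and of erythrocytes (3 of 5) 5.004 to 92.1 and 6.03 to 79.4. Among the theca, oocyte, leukocyte, muscle, epithelial and erythrocyte markers tested, 0 passed in edgeR, and of the 4 luteal markers tested PRLR alone passed, rising from at most 0.158 CPM to between 0.622 and 9.80 CPM. The oocyte sum did not follow most of its markers. Of the 7 tested, 1 had a negative change, and their median log2 fold change was 2.25. The part of cell composition in the fall of the 58 genes was not tested.

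The ovary stood above the other tissues in most of the 58 genes on day 6, and by less on day 18. The median log2 difference from the endometrium was 3.43 on day 6 and 0.54 on day 18, and that from the oviduct was 3.20 and 0.70. On day 18 the fitted difference was still positive for 35 of the 58 genes against the endometrium and for 41 against the oviduct, most of which did not pass. On day 6, 45 of the 58 genes were higher in the ovary than in the endometrium (edgeR's quasi-likelihood test), and 1, ENTPD3, was lower, where 23.6% of all genes tested were higher and 21.5% lower. Against the oviduct, 43 were higher, and 1, CAPN6, was lower, where 21.7% of all genes tested were higher and 24.3% lower. On day 18, 15 were higher and 5 lower than in the endometrium, against 17.4% and 15.1% of all genes, and 14 were higher and 4 lower than in the oviduct, against 20.9% and 19.9% of all genes. With day and library number as a block, the day 18 counts were 14 higher and 8 lower against the endometrium, and 9 higher and 6 lower against the oviduct. The count against the oviduct on day 6 was 27 without library 3 of the oviduct, and counts on day 18 were 8 against the endometrium and 5 against the oviduct without library 1 of the ovary, and 7 and 9 against the oviduct without its library 1 or 2.

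The difference between tissues in the change itself was tested in a model of both tissues. The change from day 6 to day 18 was lower in the ovary than in the endometrium for 27 of 58 genes (edgeR), where 7.37% of all genes tested were lower and 6.12% higher. It was lower than in the oviduct for 17, where 9.83% were lower and 8.74% higher, and 0 of the 58 passed in the other direction in either comparison, where 4 and 6 of the fitted differences were positive. SMARCA1 had 108, 109 and 93.3 CPM in the endometrium on day 6 and 101, 100 and 101 on day 18, and its change in the ovary was lower by 3.79 on the log2 scale with an SE of 0.86 (difference -3.79, adjusted p = 0.0041). For OCRL the differences were -4.30 ± 0.90 against the endometrium (edgeR, adjusted p = 0.0022) and -4.38 ± 1.01 against the oviduct (adjusted p = 0.0037), and for SIDT2 they were -3.67 ± 0.50 (adjusted p = 3.1e-05) and -2.55 ± 0.53 (adjusted p = 0.0017). The count against the oviduct was 10 without library 3 of day 18 or of day 6 of the ovary, 26 without library 1 of day 18 of the ovary, 11 without library 3 of day 18 of the oviduct, and 8 and 6 without library 2 or 3 of day 6 of the oviduct.

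Between days 6 and 18 in the endometrium, the number of the genes that changed was near the share of all genes. Of 48 genes tested in the endometrium, 8 were lower and 6 higher on day 18 than on day 6 (edgeR), where 11.7% and 11.8% of all genes tested were lower and higher. PCK1 had 0, 0.277 and 0.178 CPM in the endometrium on day 6, all at or under the lowest detectable level, and 566, 7.28 and 152 on day 18 (adjusted p = 0.0031 in edgeR's quasi-likelihood test). RASGRP1 had 158, 268 and 43.5 CPM there on day 6 and 6.83, 39.3 and 33.4 on day 18, a fall by 2.72 ± 0.59 on the log2 scale (edgeR, adjusted p = 0.0038). SORD also fell in the endometrium, from 241, 130 and 137 CPM to 38.8, 89.2 and 93.2, by 1.35 ± 0.41 (edgeR, adjusted p = 0.025). The others that fell were DHRS4, ELOVL5, OCRL, SLC30A5, COA4 and ENSSSCG00000008845, and those that rose beside PCK1 were NR4A3, SIDT2, OLFM2, GDAP1L1 and ENSSSCG00000012141. Counts were 2 higher without library 1 of day 6, 3 higher and 4 lower without its library 2, and 5 lower without library 1 of day 18. In the oviduct 1 of 54 genes passed, ENSSSCG00000024378, which was lower on day 18, where 1.3% of all genes tested were lower, and 0 passed without library 2 or 3 of day 6 or library 2 of day 18.

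A level course between days 0 and 9 was not a low level. Of the 58 genes, 10 had their highest mean of all 21 groups outside the ovary, 7 in the endometrium and 3 in the oviduct. MAL2 had 141 to 180 CPM in the endometrium and 144 and 205 CPM in the oviduct on day 6, where its difference from the ovary did not pass in either (edgeR, adjusted p = 0.99). CAPN6 had 39.5 and 36.2 CPM in the oviduct on day 6 and CHST9 42.4 and 24.8, and HAPLN1 and ENTPD3 had 61.5 to 87.5 and 54.8 to 68.9 CPM in the endometrium.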

How the data were processed

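Total RNA of each tissue was made into TruSeq mRNA libraries and sequenced as paired-end reads. The authors trimmed the reads, mapped them with TopHat2 to the pig genome with Ensembl gene models, and deposited raw counts per gene and library, neither normalized nor pooled. Per the labels, their processing used FastQC, featureCounts, Cufflinks, Cuffdiff and edgeR. Which tool made the counts, and with which strand setting, is not given in the sources used here. The table has 66 libraries, and 1 endometrium sample of day 12 out of 67 labelled samples was not analysed here. Column names give tissue, day and a number, which names a library within its tissue and day. There were 0 identical pairs of libraries within groups.

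The genes and all gene lists were chosen with earlier results of these data known, and a result already seen is no independent support. Symbols came from a table that paired 11804 identifiers. Gene order came from RefSeq (assembly Sscrofa11.1), which is not the build of the counts, so no coordinates are given; 37 of 38 symbols were found there. Sequences were not analysed here, and 1 gene of a list is not reported here.

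CPM was the count divided by the library total. Tests used edgeR 4.0.16 in R 4.3.3 with TMM scaling, filterByExpr, robust glmQLFit and glmQLFTest, 1 fit per tissue with day as factor or per pair of tissues with tissue and day, and Benjamini-Hochberg adjustment over all genes tested, with a threshold of 0.05. The SE of a log2 fold change was taken as its size over the root of the F statistic. By the study's methods the tissues were taken from the same gilts, but no source used here ties a library number to a gilt. Deviations from the group means of same-numbered libraries of ovary and endometrium correlated at 0.24, 0.24 and 0.21 on day 18, and at 0.14, 0.19 and -0.02 on day 6. Differently numbered libraries of day 18 gave -0.23 to 0.02. With 3 libraries a group, these values do not establish a pairing. Those of ovary and oviduct correlated at 0.12, 0.09 and -0.07 on day 18 and at 0.12 in both pairs of day 6. Tests of tissues were made without a block, and blocked counts are given beside those they change. The steps were also run on simulated counts, in which each gene had 1 spread for all days. That run does not cover days that differ in spread, and no result here rests on it. Alternatives were DESeq2 1.42.0, its size factors, no filter, fits of fewer groups, a block for the library number, leaving out each library, and other scalings in the choice of genes. A fit without library 1 of day 12 was added after seeing the data for the comparisons of days 6, 15 and 18. Named were the 12 members with a symbol and the highest day 9 CPM in the ovary, members in a gene list, the 4 with a symbol that fell most from day 6 to day 18 and passed, and genes next to the threshold. The other members with a symbol, neighbours of members and COA4 were added with their values seen. Intervals and floors would cover counting error only, since the reads carry no molecular identifiers. Python 3.11.15 was used outside R.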

Additional observations from a re-analysis of the deposited data

Results flagged for a closer look

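Of 41 tests for an outlying library in groups of 4 libraries, 7 found a library far from the other 3. Most tests were of a named gene in the ovary on day 12 or day 15. The rest were of the mean over the chosen genes, some of them in the other tissues. Chance gives about 1 in 20 for separate tests. Tests of different genes on a day used the same libraries, so the number found cannot be set against that rate. On day 12 the highest library stood apart for SMARCA1 at 2579 CPM, OCRL at 1166 CPM and HUNK at 51.3 CPM, in each case library 4, and the lowest stood apart for RASGRP1 at 2.92 CPM, which was library 1. On day 15 the highest library stood apart for OCRL at 108.9 CPM and SIDT2 at 113 CPM, both library 2, and for NPTX2 at 242 CPM, library 4.

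The change from day 6 to day 18 differed between tissues by the test of the difference in edgeR, for 27 genes against the endometrium and for 17 against the oviduct. Among the named genes the log2 change in the ovary minus that in the endometrium was -3.79 for SMARCA1, -4.30 for OCRL, -3.67 for SIDT2, -4.14 for ERO1B, -3.49 for COBLL1, -2.23 for SLC30A5, -3.86 for MAL2, -5.19 for HUNK, -2.53 for ENSSSCG00000008845 and -3.07 for ENSSSCG00000023014. It was -9.26 for OLFM2 and -6.55 for GDAP1L1, whose endometrium libraries of day 6 were at or under the lowest detectable level, so that these fitted values depend on the prior count. Ovary minus oviduct was -3.43 for SMARCA1, -4.38 for OCRL, -2.55 for SIDT2, -2.24 for ELOVL5, -2.83 for COBLL1, -3.28 for SLC30A5, -4.03 for MAL2, -4.49 for HUNK and -2.63 for ENSSSCG00000008845. For ERO1B and OLFM2 the ovary minus oviduct difference did not pass.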

How the results depend on the processing

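Leaving out 1 library gave 2 to 39 genes lower on day 18 than on day 6, 4 to 33 lower on day 15 than on day 6, 0 to 32 lower on day 15 than on day 12, 0 to 2 lower on day 12 than on day 6, 0 lower on day 18 than on day 15, and 0 to 29 higher on day 9 than on day 0. Against the endometrium it gave 42 to 46 higher and 1 to 2 lower on day 6, 8 to 17 higher and 4 to 6 lower on day 18, and 22 to 34 with a lower change. Against the oviduct it gave 27 to 41 higher and 1 lower on day 6, 5 to 17 higher and 3 to 4 lower on day 18, and 6 to 26 with a lower change. It gave 2 to 6 higher and 4 to 6 lower on day 18 in the endometrium and 0 to 2 lower in the oviduct. The number of genes chosen was 50 to 69. The difference of the group mean of log2(CPM + 1) between days 6 and 18 was 2.14, and 1.90 to 2.46 without 1 library. The fold change of LEPR between those days, 0.07, turned to -1.39 without library 1 of day 18 and to -0.39 without library 1 of day 6, and ranged up to 0.51.

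DESeq2 gave 29 genes lower on day 15 than on day 6, 25 on day 15 than on day 12, 1 on day 12 than on day 6, and 8 lower in the ovary than in the endometrium on day 18. Fits of days 6, 12, 15 and 18 alone gave 5 genes lower on day 18 and 1 on day 15 than on day 6. Fits of only the groups compared gave 11 lower on day 15 than on day 6, 9 lower in the ovary than in the endometrium on day 18 and 2 on day 6, 4 higher in the ovary than in the oviduct on day 18, and 0 in the oviduct between days 6 and 18, as did the fit with no filter on low counts. TMM library sizes in the choice of genes gave 96 genes, of which 54 were among the 58, a pseudocount of 0.1 gave 76 with 37 shared, and medians gave 65 with 46 shared. The causes were not tested.

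Library numbers were not taken to pair the libraries of different days, where the correlations of same-numbered ovary libraries of days 6 and 18 were -0.14, -0.14 and -0.07. A block for the number gave 31 genes lower on day 18 and 25 on day 15 than on day 6, 1 on day 12 than on day 6, 27 and 15 with a lower change than the endometrium and the oviduct, 8 lower in the ovary than in the endometrium on day 18, 9 higher than in the oviduct on day 18, and 0 in the oviduct between days 6 and 18. With 2 to 4 libraries a group and an SD of 1.31 in the group mean on day 12, smaller steps between neighbouring days were not resolved.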
